A study of Mus musculus with 18 samples.

Results

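The MHC class I presentation genes were followed through lung macrophages of LPS-treated mice with and without ezrin. The set was taken by name from the count table: the heavy chains *H2-K1*, *H2-D1*, *H2-Q6*, *H2-Q7* and *H2-T23*, the light chain *B2m*, the peptide transporter and loading genes *Tap1*, *Tap2* and *Tapbp*, and the regulator *Nlrc5*. These were 10 of the 21254 genes of the table, and all 10 were among the 15811 genes with enough counts to be tested. Lungs were taken 24 h after 12.5 mg of *Pseudomonas aeruginosa* LPS in 5 ml of PBS had been nebulized over 15 min, which all 18 libraries share. Sorted CD45+CD11b+ cells were divided into monocyte-derived macrophages (moMs, MHC-II-Ly6C+), transitional interstitial macrophages (tnsIMs, called trIMs in the sample labels, MHC-II+Ly6C+) and mature interstitial macrophages (matIMs, MHC-II+Ly6C-). Ezr-KOm mice joined the floxed allele of B6.Ez fl/fl to B6.Cx3cr1 tm1.1(cre)Jung/J, in which Cre under *Cx3cr1* deletes the floxed gene in monocytes and macrophages. WT mice carried the same Cre without floxed *Ezr*, so every group held the Cre allele. Mice of both sexes aged 3 to 5 months were used, on C57BL/6. With 3 mice per genotype, there were 3 libraries in each of 6 groups.

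Class I molecules show peptides from inside the cell to CD8+ T cells. Proteasomes cut proteins to peptides, the TAP transporter pumps these into the endoplasmic reticulum, and tapasin with its chaperones loads them onto a heavy chain paired with beta-2 microglobulin. Nearly every nucleated cell carries class I, and interferons raise it, in part through the transactivator NLRC5. Class II molecules, which were used here to sort the cells, present peptides from endocytosed material and are limited to antigen-presenting cells.

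Levels are given as CPM, the counts of a gene scaled to a common library size by the TMM method. Library totals ran from 16512783 to 48460995 counts, and the smallest count of any of the 10 genes in any library was 339, for *H2-Q6*. *Ezr*, the deleted gene, read 503, 593 and 497 CPM in WT moMs and 282, 160.0 and 252 CPM in Ezr-KOm moMs. It was at 586 ± 83.8 against 191 ± 57.4 CPM (mean ± SD, n = 3) in tnsIMs, and at 661 ± 70.0 against 135 ± 37.4 CPM in matIMs. The Ezr-KOm libraries were thus below the WT libraries in every population (log2 fold change -1.20, -1.62 and -2.29, with edgeR adjusted p = 0.0549, 0.00365 and 7.73e-05). In all, 8 of the 10 genes lie on chromosome 17, as does *Ezr*, but at 27.1 to 29.3 Mb from it. In GRCm39 the table places *Tapbp* at chr17:34134873-34148266, *H2-K1* at chr17:34214991-34219321, *Tap1* at chr17:34406527-34416199 and *Tap2* at chr17:34422501-34435295. The D, Q and T regions follow, with *H2-D1* at chr17:35481706-35486475, *H2-Q6* at chr17:35643826-35649031, *H2-Q7* at chr17:35658131-35662749 and *H2-T23* at chr17:36340665-36343747. Off that chromosome lie *B2m* at chr2:121978167-121983564 and *Nlrc5* at chr8:95160984-95253900. The labels do not say which mouse gave which library, so the p-values measure the spread between these libraries. Libraries numbered 2 held less *Ezr* than the others in each Ezr-KOm group and stood low for several class I genes, as described with the replicate numbers.

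Markers of several other cell types moved with the populations, beside macrophage markers, none of which was at 0. Dendritic cell markers (10 genes, among them *Flt3*, *Zbtb46* and *Ccr7*) summed to 83.9 to 125 CPM in WT moMs, 315 to 572 in WT tnsIMs and 5754 to 7890.3 in WT matIMs, with 9 of 10 higher in matIMs than in moMs. In Ezr-KOm the sums were 93.9 to 113, 408 to 625 and 7257 to 7608 CPM. In WT matIMs the largest counts of this list were of *Ccl22* (58762, 72371 and 59082) and *Ccr7* (43869, 47259 and 39741). The gene that did not rise was *Xcr1*, with 157, 118 and 126 counts in WT moMs and 89, 72 and 114 in WT matIMs. Macrophage markers (10 genes) summed to 25954 to 32234 CPM in WT moMs and 9938 to 11518 CPM in WT matIMs, a sum made up mostly of *Lyz2* (23279 ± 2888 and 6569.6 ± 644 CPM). Gene by gene they went both ways from moMs to matIMs, with 3 of 10 higher and 4 lower in WT, and 3 higher and 6 lower in Ezr-KOm. The complement gene *C1qa* was among the higher ones (91.8 ± 13.4 and 307 ± 73.0 CPM in WT). Of 6 alveolar macrophage markers, 5 were higher in matIMs and 1 lower in each genotype (median log2 fold change 2.29 in WT). Their sum still went from 5233 to 6534 to 473 to 625 CPM in WT through the abundant *Chil3*. B cell markers (7 genes) summed to 105 to 178 CPM in WT moMs and 464 to 618 CPM in WT matIMs, with 7 of 7 higher. Of these, *Pax5* was at 0 in the Ezr-KOm moM libraries. Epithelial markers (6 genes) peaked in tnsIMs, at 1024 to 1988 CPM in WT against 19.3 to 33.8 CPM in WT moMs. Endothelial markers (5 genes) summed to 236 to 415 CPM in WT tnsIMs against 77.8 to 106 CPM in WT moMs. Neutrophil markers (7 genes) were at 162 to 254 against 56.7 to 97.3 CPM. Fibroblast markers (5 genes) were at 79.3 to 99.5 against 21.5 to 35.5 CPM. T and NK cell markers (10 genes) overlapped, at 38.4 to 57.8 against 39.7 to 59.2 CPM. Eosinophil markers reached at most 9.27 CPM. The part of such cells in the class I values was not tested. In bulk libraries, fewer cells of a type cannot be told from less RNA per cell.

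Per kilobase of transcript, the classical chains and the light chain stood far above the rest. The order of mean levels over the 6 groups was *H2-D1* (2598 CPM per kb), *B2m* (2247), *H2-K1* (1316), *Tapbp* (257), *H2-T23* (217), *Tap1* (132), *H2-Q7* (55.0), *Tap2* (31.6), *H2-Q6* (23.3) and *Nlrc5* (13.1). *Tap2* and *H2-Q7* changed places when the union of all exons was taken as the length. The steadiest gene was *H2-D1*, whose highest library was 1.32 times its lowest, and the widest was *H2-Q6*, at 4.99 times.

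**Figure D1:**
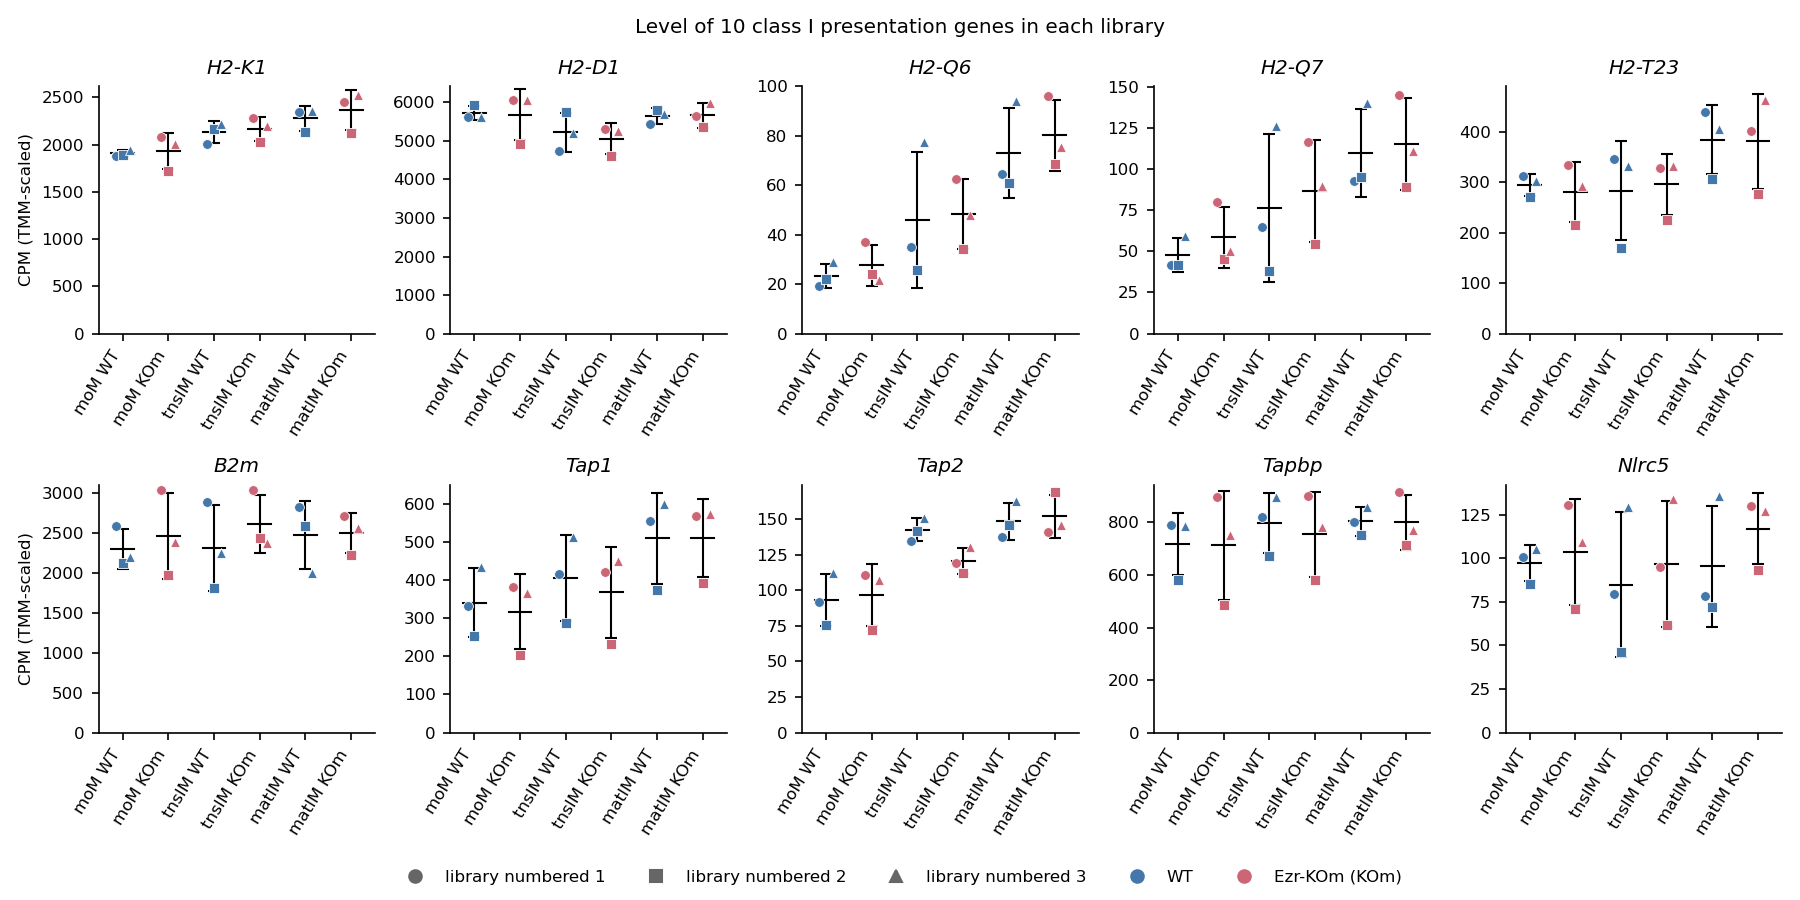
CPM (TMM-scaled, y axis from 0) of the 10 genes in the 18 libraries, by population and genotype (x axis), with a symbol for each replicate number and the mean ± SD of 3 libraries in black. WT and Ezr-KOm libraries overlap in nearly every panel, *H2-Q6* goes from 19.3 to 37.2 CPM in moMs to 61.0 to 96.3 CPM in matIMs, and the squares (libraries numbered 2) sit at the bottom of every group for *H2-T23*, *Tap1*, *Tapbp* and *Nlrc5*.

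The heavy chains are close relatives, and this bears on how far their counts can be told apart. Their second exon, which encodes the first of the folds that form the peptide groove, is 270 bases long in each of the 5 genes. Below are its first 90 bases in GRCm39, read 5′ to 3′ on the strand of the gene, with the bases that differ from *H2-K1* in capitals. They are shown to let the chains be compared base by base.
H2-K1: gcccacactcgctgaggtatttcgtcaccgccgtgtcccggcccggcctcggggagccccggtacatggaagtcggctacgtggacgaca
H2-D1: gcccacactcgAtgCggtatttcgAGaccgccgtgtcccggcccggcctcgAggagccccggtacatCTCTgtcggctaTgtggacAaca
H2-Q6: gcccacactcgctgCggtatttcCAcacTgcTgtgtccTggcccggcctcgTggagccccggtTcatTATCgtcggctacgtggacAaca
H2-Q7: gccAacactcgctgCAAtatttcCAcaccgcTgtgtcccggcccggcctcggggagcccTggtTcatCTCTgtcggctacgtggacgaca
H2-T23: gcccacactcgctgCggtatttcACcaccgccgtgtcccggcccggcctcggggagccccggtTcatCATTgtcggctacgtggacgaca
These stretches lie at chr17:34218888-34218977 (minus strand), chr17:35482355-35482444, chr17:35644084-35644173 and chr17:35658428-35658517 (plus strand) and chr17:36343225-36343314 (minus strand). Over the whole exon, *H2-K1* was 91.1% identical to *H2-D1*, 88.1% to *H2-Q6*, 87.8% to *H2-Q7* and 86.7% to *H2-T23*. *H2-Q6* and *H2-Q7* were the closest pair, with 93% identity and 19 differing bases. Of the 150-base windows of the canonical transcript, 8.61% of *H2-Q7* and 5.84% of *H2-Q6* occurred without a mismatch in the other gene. With windows found in any other gene, the share was 19% for *H2-Q7*, 10.9% for *H2-Q6*, 16.7% for *H2-D1*, 8.78% for *H2-K1* and 3.1% for *H2-T23*. *Tapbp* (16.8%) and *Tap1* (7.27%, all with *Psmb9*) also shared windows, *Tap2* shared 0.575%, and *B2m* and *Nlrc5* shared 0. The values of *H2-Q6* and *H2-Q7* are therefore uncertain as levels of either gene alone. Counts from shared windows are likewise uncertain for *H2-D1*, with 14.9% of its windows in *5430410E06Rik*, and for *Tapbp*, with 15.7% in *Gm19412*.

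*H2-K1* and *H2-D1* encode the classical chains of C57BL/6 mice. *H2-K1* in moMs read 1879, 1893 and 1947 CPM in the WT libraries and 2085, 1719 and 2002 CPM in the Ezr-KOm libraries. In tnsIMs, *H2-K1* read 2006, 2171 and 2222 CPM in WT and 2284, 2031 and 2194 CPM in Ezr-KOm. In matIMs, *H2-K1* read 2343, 2129.8 and 2358 CPM in WT and 2452, 2124 and 2521 CPM in Ezr-KOm. The WT matIM libraries all lay above the WT moM libraries, and the same held in Ezr-KOm, while the WT and Ezr-KOm libraries overlapped within each population. matIMs were 1.19 times moMs in WT (log2 fold change 0.26 ± 0.12 SE) and 1.22 times in Ezr-KOm (0.29 ± 0.12), neither of which passed (edgeR adjusted p = 0.133 and 0.0906). The Ezr-KOm difference passed once the replicate number was fitted as a block (0.29, edgeR adjusted p = 0.0384). *H2-D1* ranged from 4598 to 6068 CPM over the 18 libraries. Its means were 5724 ± 182 CPM in WT moMs, 5227 ± 505 in WT tnsIMs and 5646 ± 195 in WT matIMs (SD, n = 3). In Ezr-KOm the means of *H2-D1* were 5680.0 ± 658, 5059.7 ± 400.3 and 5661 ± 316 CPM in the same order. No pair of neighbouring groups in the order of its levels stood apart. Among groups that were not neighbours, Ezr-KOm matIMs (5358 to 5988 CPM) lay above Ezr-KOm tnsIMs (4598 to 5317 CPM) without overlap. That difference did not pass (log2 fold change 0.16 ± 0.13 SE, edgeR adjusted p = 0.457).

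*H2-Q6* and *H2-Q7* belong to the nonclassical Qa genes, whose products include the Qa-2 antigen. *H2-Q6* in moMs read 19.3, 22.3 and 28.8 CPM in the WT libraries and 37.2, 24.1 and 21.8 CPM in the Ezr-KOm libraries. In tnsIMs, *H2-Q6* read 35.0, 25.7 and 77.4 CPM in WT and 62.5, 34.3 and 47.9 CPM in Ezr-KOm. In matIMs, *H2-Q6* read 64.4, 61.0 and 93.9 CPM in WT and 96.3, 68.7 and 75.6 CPM in Ezr-KOm. Every matIM library was above every moM library, also across genotypes, and the WT tnsIM libraries overlapped with both. In Ezr-KOm the tnsIM libraries overlapped with the moM libraries and lay below the matIM libraries. *H2-Q6* rose in matIMs to 3.12 times the moM level in WT (log2 fold change 1.64 ± 0.34 SE, edgeR adjusted p = 0.0012). In Ezr-KOm it rose to 2.90 times (1.53 ± 0.33, edgeR adjusted p = 0.00207). *H2-Q7* in moMs read 41.7, 42.0 and 59.6 CPM in the WT libraries and 80.0, 45.5 and 50.0 CPM in the Ezr-KOm libraries. In tnsIMs, *H2-Q7* read 65.0, 38.2 and 126 CPM in WT and 117, 54.4 and 89.7 CPM in Ezr-KOm. In matIMs, *H2-Q7* read 93.0, 95.5 and 140.5 CPM in WT and 145, 89.3 and 111 CPM in Ezr-KOm. The order of the libraries was close to that of *H2-Q6*, with which it can share reads. *H2-Q7* rose in WT matIMs to 2.29 times the WT moM level (1.20 ± 0.36, edgeR adjusted p = 0.0181), and stood at 1.97 times in Ezr-KOm (0.98 ± 0.35), which missed the threshold (edgeR adjusted p = 0.053) and passed with the replicate block (0.97, edgeR adjusted p = 0.0102).

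*H2-T23* encodes Qa-1, the mouse counterpart of HLA-E, which presents leader peptides of other class I chains to inhibitory receptors of NK cells. *H2-T23* in moMs read 312, 271 and 302 CPM in the WT libraries and 334, 215 and 293 CPM in the Ezr-KOm libraries. In tnsIMs, *H2-T23* read 347, 171 and 332 CPM in WT and 329, 226 and 333 CPM in Ezr-KOm. In matIMs, *H2-T23* read 439, 307 and 406 CPM in WT and 402, 278 and 464 CPM in Ezr-KOm. The library numbered 2 was lowest in each of the 6 groups, and no population stood apart from another in either genotype. In matIMs the level was 1.30 times that of moMs in WT (0.38 ± 0.25, edgeR adjusted p = 0.302) and 1.36 times in Ezr-KOm (0.44 ± 0.25, edgeR adjusted p = 0.234). The Ezr-KOm difference passed with the replicate block (0.43, edgeR adjusted p = 0.0207). *B2m*, the light chain shared by all class I molecules, stood between 1802 and 3032 CPM. Its lowest group mean was 2298 ± 249 CPM in WT moMs and its highest 2611 ± 363 CPM in Ezr-KOm tnsIMs, with all groups overlapping. The library numbered 1 was the highest for *B2m* in 6 of 6 groups. The share of all tested genes for which this held was not taken.

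*Tap1* and *Tap2* encode the subunits of the peptide transporter. *Tap1* in moMs read 333, 255 and 436 CPM in the WT libraries and 382, 205 and 366 CPM in the Ezr-KOm libraries. In tnsIMs, *Tap1* read 415, 288 and 513 CPM in WT and 422, 232 and 452 CPM in Ezr-KOm. In matIMs, *Tap1* read 555, 375 and 599.9 CPM in WT and 567, 394 and 573 CPM in Ezr-KOm. Ezr-KOm matIMs lay above Ezr-KOm moMs without overlap, and WT matIMs overlapped with WT moMs through the library numbered 2. *Tap1* in WT matIMs was at 1.50 times the moM level (0.58 ± 0.29, edgeR adjusted p = 0.166) and in Ezr-KOm at 1.61 times (0.69 ± 0.29, edgeR adjusted p = 0.102). Both differences passed with the replicate block (0.58 in WT and 0.72 in Ezr-KOm, edgeR adjusted p = 0.000865 and 0.00013). *Tap2* in moMs read 92.0, 75.8 and 112 CPM in the WT libraries and 111, 72.0 and 108 CPM in the Ezr-KOm libraries. In tnsIMs, *Tap2* read 135, 142 and 151 CPM in WT and 119, 113 and 130.1 CPM in Ezr-KOm. In matIMs, *Tap2* read 137, 146 and 163 CPM in WT and 141, 169 and 146 CPM in Ezr-KOm. Both IM populations lay above the moMs in either genotype. *Tap2* rose in WT tnsIMs to 1.53 times the moM level (0.61 ± 0.17, edgeR adjusted p = 0.0122) and in WT matIMs to 1.59 times (0.67 ± 0.17, edgeR adjusted p = 0.00519). In Ezr-KOm, *Tap2* rose in matIMs to 1.57 times moMs (0.65 ± 0.17, edgeR adjusted p = 0.00674) and was at 1.25 times in tnsIMs (0.32 ± 0.16, edgeR adjusted p = 0.23). Ordered by mean, the 6 groups of *Tap2* ran WT moMs, Ezr-KOm moMs, Ezr-KOm tnsIMs, WT tnsIMs, WT matIMs and Ezr-KOm matIMs. Only the steps on both sides of Ezr-KOm tnsIMs separated groups whose libraries did not overlap, and *Tap2* was the 1 gene of the 10 with any such step.

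*Tapbp* encodes tapasin, which holds the empty chain at the transporter. It ranged from 488 to 915 CPM, with group means between 713 ± 208 CPM in Ezr-KOm moMs and 804 ± 54.6 CPM in WT matIMs. *Nlrc5* encodes the transactivator of the class I genes. *Nlrc5* in moMs read 101, 85.4 and 105 CPM in the WT libraries and 130.4, 70.8 and 109 CPM in the Ezr-KOm libraries. In tnsIMs, *Nlrc5* read 79.5, 46.1 and 129 CPM in WT and 94.8, 61.5 and 134 CPM in Ezr-KOm. In matIMs, *Nlrc5* read 78.3, 72.0 and 135 CPM in WT and 130.0, 93.4 and 127 CPM in Ezr-KOm. The libraries of all groups overlapped, and those numbered 3 or 1 were highest in each. *Nlrc5* in WT matIMs was at 0.981 times WT moMs (-0.028 ± 0.33, edgeR adjusted p = 0.965) and in Ezr-KOm at 1.13 times (0.18 ± 0.33, edgeR adjusted p = 0.779).

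The comparison of Ezr-KOm with WT asked whether class I presentation genes depend on ezrin in the inflamed lung. In moMs, tnsIMs and matIMs, 0 of 10 genes passed an edgeR adjusted p of 0.05 in any direction, where 0.171%, 0.164% and 0.152% of all tested genes did. At an unadjusted p under 0.05 the count was also 0 of 10 in each population (all tested genes: 3.74%, 3.24% and 3.84%), and DESeq2 called 0. The study's own rule asks for a log2 fold change beyond 0.75 in size and a p under 0.05 before adjustment, and 0 of 10 passed it in each population (all tested genes: 2.51%, 1.83% and 2.4%). The median log2 fold change of the 10 genes was 0.037, 0.043 and 0.025, against 0.0022, 0.002 and -0.0014 over all tested genes.

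The 95% confidence intervals say how large a change these libraries could have missed. For *H2-K1*, the interval of the log2 difference between Ezr-KOm and WT was -0.23 to 0.27 in moMs, -0.23 to 0.27 in tnsIMs and -0.20 to 0.31 in matIMs. For *H2-D1*, the intervals were -0.27 to 0.25, -0.31 to 0.22 and -0.26 to 0.27 in the same order. The abundant chains were thus bounded closely. *B2m* was bounded by -0.30 to 0.50, -0.22 to 0.58 and -0.38 to 0.42. The widest intervals belonged to *H2-Q7*, at -0.45 to 1.03 in moMs, -0.55 to 0.91 in tnsIMs and -0.66 to 0.80 in matIMs, so that a change within those bounds could not be told from none.

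*Tap2* in tnsIMs was the only case of the 10 genes and 3 populations in which the genotypes did not overlap. Its libraries read 119, 113 and 130.1 CPM in Ezr-KOm against 135, 142 and 151 CPM in WT (log2 fold change -0.24 ± 0.16, edgeR adjusted p = 1). Of all tested genes, 2.76% had Ezr-KOm libraries entirely below WT in tnsIMs and 3.05% entirely above. In moMs these shares were 4.07% and 4.45%, and in matIMs 5.12% and 5.03%, with 0 of the 10 genes in either. In moMs and matIMs, *Tap2* differed by 0.053 ± 0.16 and 0.034 ± 0.16 on the log2 scale and the libraries overlapped. The test of whether the genotype difference changed between populations called 0 of 10 genes in each of the 3 pairs of populations, where 0.0% of all tested genes were called, and 0 of 10 had an unadjusted p under 0.05. DESeq2 also called 0 in these tests.

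**Figure D2:**
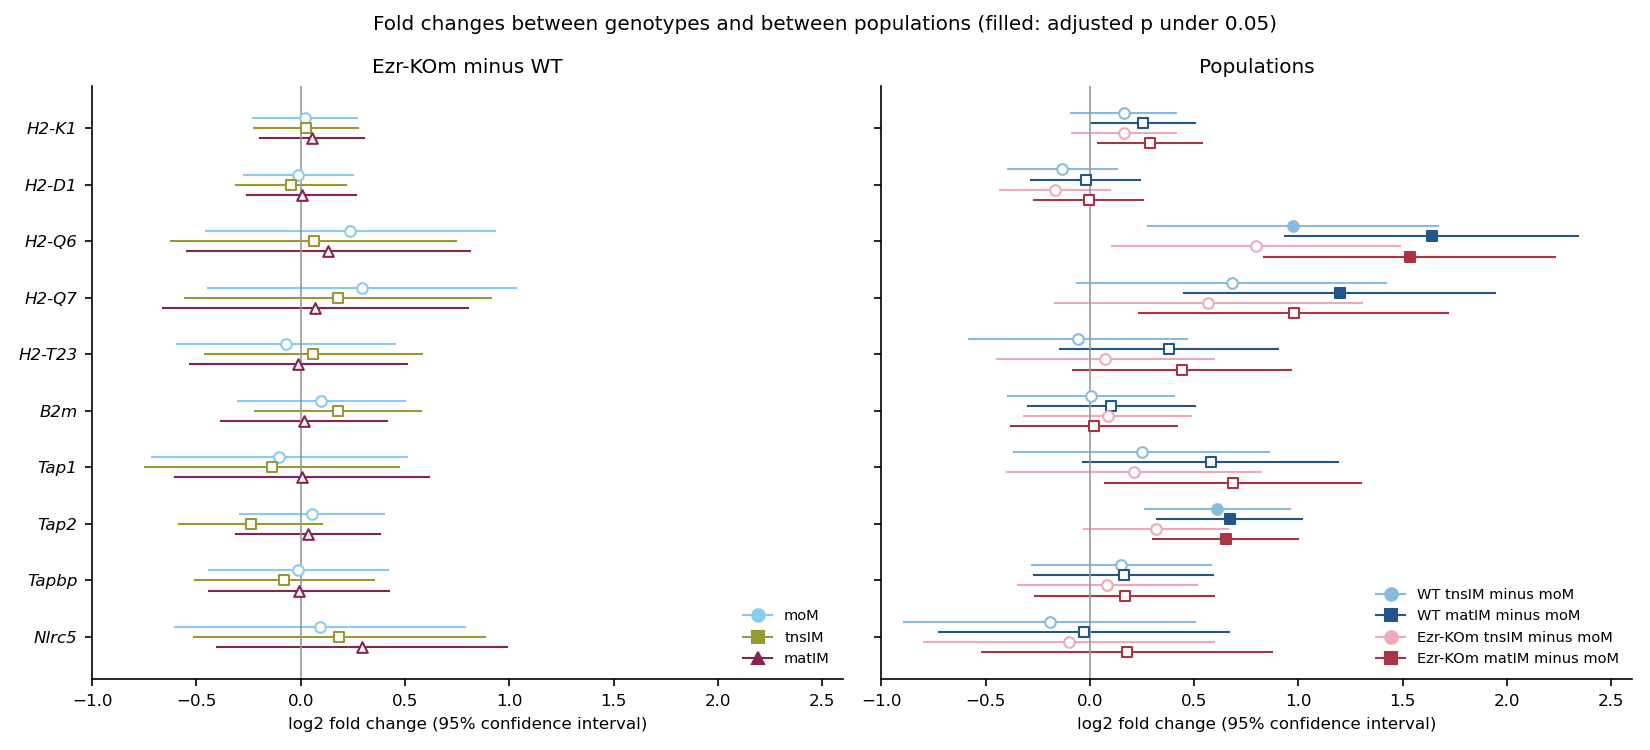
Log2 fold changes (x axis) of the 10 genes (rows) with 95% confidence intervals, for Ezr-KOm minus WT in each population (left) and for tnsIMs and matIMs minus moMs in each genotype (right). All intervals on the left include 0; on the right, filled symbols with an edgeR adjusted p under 0.05 are *H2-Q6*, *H2-Q7* and *Tap2*.

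Between populations, *H2-Q6*, *H2-Q7* and *Tap2* rose from moMs to matIMs without a block (*H2-Q7* past the threshold in WT), and none of the 10 fell. The replicate block added *Tap1* in both genotypes and *H2-Q7*, *H2-K1* and *H2-T23* in Ezr-KOm. In WT, 3 of 10 passed from moMs to matIMs, all higher, against 24.8% of all tested genes in either direction and 13.4% higher. In Ezr-KOm, 2 of 10 passed (*H2-Q6* and *Tap2*), against 23.3% of all tested genes, 12.5% being higher. In either direction these counts are near the share of the whole table, and among higher genes they are above it by fewer than 2 genes of 10. The median log2 fold change of the 10 genes was 0.32 in WT and 0.37 in Ezr-KOm, against 0.013 and 0.0067 over all tested genes. Libraries of matIMs lay entirely above those of moMs for 4 of 10 genes in WT and 5 of 10 in Ezr-KOm, where 22.2% and 20.7% of all tested genes did. Dendritic cell and B cell markers were higher in the same comparison (9 of 10 and 7 of 7 in each genotype), and their part in it was not tested.

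From moMs to tnsIMs in WT, 2 of 10 passed (*H2-Q6* and *Tap2*), against 21.6% of all tested genes. *H2-Q6* was at 1.96 times the moM level (0.97 ± 0.33, edgeR adjusted p = 0.0426), and the call rested on single libraries. Without WT tnsIM replicate 3 the log2 fold change was 0.40 (edgeR adjusted p = 0.346). It was also lost without any 1 of WT moM replicates 1, 2 and 3 (edgeR adjusted p = 0.141, 0.112 and 0.0537) and without Ezr-KOm matIM replicate 3 (0.0505). *Tap2* lost its call there only without WT moM replicate 2 among the single libraries (0.49, edgeR adjusted p = 0.0697). In Ezr-KOm, 0 of 10 passed from moMs to tnsIMs (14.3% of all tested genes; 1 of 10, *H2-Q6*, at an unadjusted p under 0.05; DESeq2 0). From tnsIMs to matIMs, 0 of 10 passed in WT (18.5%; 0 of 10 at an unadjusted p under 0.05; DESeq2 0) and 0 of 10 in Ezr-KOm (18.2%; 1 of 10, *H2-Q6*; DESeq2 0). The comparisons share groups and are not independent of each other.

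For the step from moMs to matIMs, *H2-Q6* kept its call in both genotypes under every one of the 30 alternatives run. *Tap2* kept it in WT under all but 1, the fit without the 6 libraries numbered 1 (0.69, edgeR adjusted p = 0.0586). In Ezr-KOm *Tap2* lost it only without the 6 libraries numbered 2 (0.39, edgeR adjusted p = 0.114). *H2-Q7* lost its WT call without WT moM replicate 1 (1.07, edgeR adjusted p = 0.0752), WT moM replicate 2 (1.09, 0.075) or WT matIM replicate 3 (0.97, 0.0789). It was also lost without the 6 libraries numbered 1 (1.20, edgeR adjusted p = 0.0804) or 3 (1.16, 0.0543), and kept in 26 of 31 settings. In Ezr-KOm, *H2-Q7* had an adjusted p under 0.05 in 13 of 31 settings.

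Libraries that share a replicate number resembled each other, and the number was therefore also fitted as a block. With the replicate block, 6 of 10 genes passed from moMs to matIMs in Ezr-KOm, where 29.3% of all tested genes passed. These were *H2-Q6*, *Tap2*, *H2-K1*, *H2-Q7*, *H2-T23* and *Tap1*, all higher in matIMs. The shares of all tested genes given for the blocked fits count both directions, and those for higher genes alone were not taken. In WT, *Tap1* joined the 3 called genes, so that 4 of 10 passed, with 30.9% of all tested genes. *Tap1* also passed from tnsIMs to matIMs with the block, in WT (0.34, edgeR adjusted p = 0.0408) and in Ezr-KOm (0.51, 0.00314). *H2-T23* passed in the WT step (0.48, edgeR adjusted p = 0.0142). Thus 2 of 10 passed there in WT and 1 of 10 in Ezr-KOm, against 23.1% and 23.4% of all tested genes. With number and genotype together as the block, *H2-Q6* and *H2-Q7* passed as well from tnsIMs to matIMs in WT (0.77 and 0.63, edgeR adjusted p = 0.00425 and 0.0178). They also passed from moMs to tnsIMs in Ezr-KOm (0.80 and 0.55, edgeR adjusted p = 0.00443 and 0.0397), where 21.5% of all tested genes did. With number and genotype as the block, the counts were 3, 4 and 4 of 10 in WT from moMs to tnsIMs, tnsIMs to matIMs and moMs to matIMs, against 30.0%, 23.9% and 31.6% of all tested genes. In Ezr-KOm they were 2, 2 and 6 of 10 in that order, against 21.5%, 24.4% and 30.3%. These calls included *H2-Q7* from moMs to tnsIMs in WT, and *H2-Q6* from tnsIMs to matIMs in Ezr-KOm (edgeR adjusted p = 0.00423). From moMs to tnsIMs the replicate number alone gave 2 of 10 in WT and 0 of 10 in Ezr-KOm, with 28.9% and 20.1% of all tested genes. Between the genotypes it gave 0 of 10 in moMs, tnsIMs and matIMs, with 0.266%, 0.215% and 0.24% of all tested genes.

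The rest of the pathway was read from lists of its steps. The counts below are to be read against all tested genes, of which 24.8% passed from moMs to matIMs in WT (13.4% higher) and 23.3% in Ezr-KOm (12.5% higher). Immunoproteasome subunits and the PA28 activator, which shape peptides for class I, moved together: 4 of 5 genes passed from moMs to matIMs in each genotype and 0 of 5 fell. *Psmb8* went from 246 ± 22.3 to 441 ± 80.9 CPM in WT (log2 fold change 0.84, edgeR adjusted p = 0.00291), and *Psme1*, *Psme2* and *Psmb9* changed by 0.68, 0.74 and 0.72. The fifth, *Psmb10*, stood at -0.056 (edgeR adjusted p = 0.851). *Psmb9* starts 363 bases from *Tap1* on the opposite strand and shares sequence with its transcript. Of the constitutive core proteasome, 0 of 14 genes passed in either genotype (median 0.18 in WT, 0.11 in Ezr-KOm). Peptide trimming enzymes gave 0 of 6 in both. Of the loading chaperones, 1 of 6 passed in WT, the peptide-loading lectin *Calr* (0.69, edgeR adjusted p = 0.00867), and 0 of 6 in Ezr-KOm.

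Other class I and class I-like heavy chains went both ways in WT, with 4 of 12 tested genes higher and 2 lower in matIMs, and 3 higher and 0 lower in Ezr-KOm, against 24.8% and 23.3% of all tested genes. *H2-M2* went from 0.706 ± 0.279 CPM in WT moMs through 10.5 ± 2.27 in tnsIMs to 126 ± 36.9 in matIMs (matIM minus moM 7.52, edgeR adjusted p = 3.6e-10). *Cd1d1*, which presents lipids, rose by 2.12 and *Fcgrt*, the neonatal Fc receptor, by 0.96 on the log2 scale. *Hfe*, a regulator of iron uptake, fell from 90.4 ± 10.5 to 60.0 ± 2.86 CPM. Class II genes, on whose surface product the cells were sorted, gave 10 of 11 higher and 1 lower in both genotypes, with a median log2 fold change of 3.51 in WT. The class I set had a median of 0.32 in the same comparison.

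Among 15 regulators of class I transcription and of the interferon response, 3 were higher and 1 lower in WT matIMs than moMs, a share near the 24.8% of all tested genes. *Nfkb1* changed by 0.63, *Nfya* by 0.92, *Rfx5* by 0.76 and *Irf2* by -0.46 on the log2 scale (edgeR adjusted p = 0.00195, 0.00281, 0.0217 and 0.00654). In Ezr-KOm, *Nfkb1*, *Rfx5* and *Nfya* rose again and 0 fell. Interferon receptors and their kinases gave 1 of 7 higher and 4 lower in WT, and 1 higher and 3 lower in Ezr-KOm, against the same 24.8% and 23.3% over all tested genes. The kinase *Jak2* rose from 219 ± 26.3 to 502 ± 33.9 CPM in WT, while the receptor chains *Ifnar1*, *Ifngr1* and *Ifnar2* fell by 0.53, 0.84 and 0.55. Genes of cross-presentation gave 1 of 7 higher and 3 lower in both genotypes, with *Wdfy4* higher (0.98 in WT) and *Rab32*, *Cybb* and *Rab27a* lower (-0.72, -0.91 and -1.53). Between the genotypes, 0 genes of any of these lists passed an adjusted p of 0.05 in any population by edgeR.

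**Figure D3:**
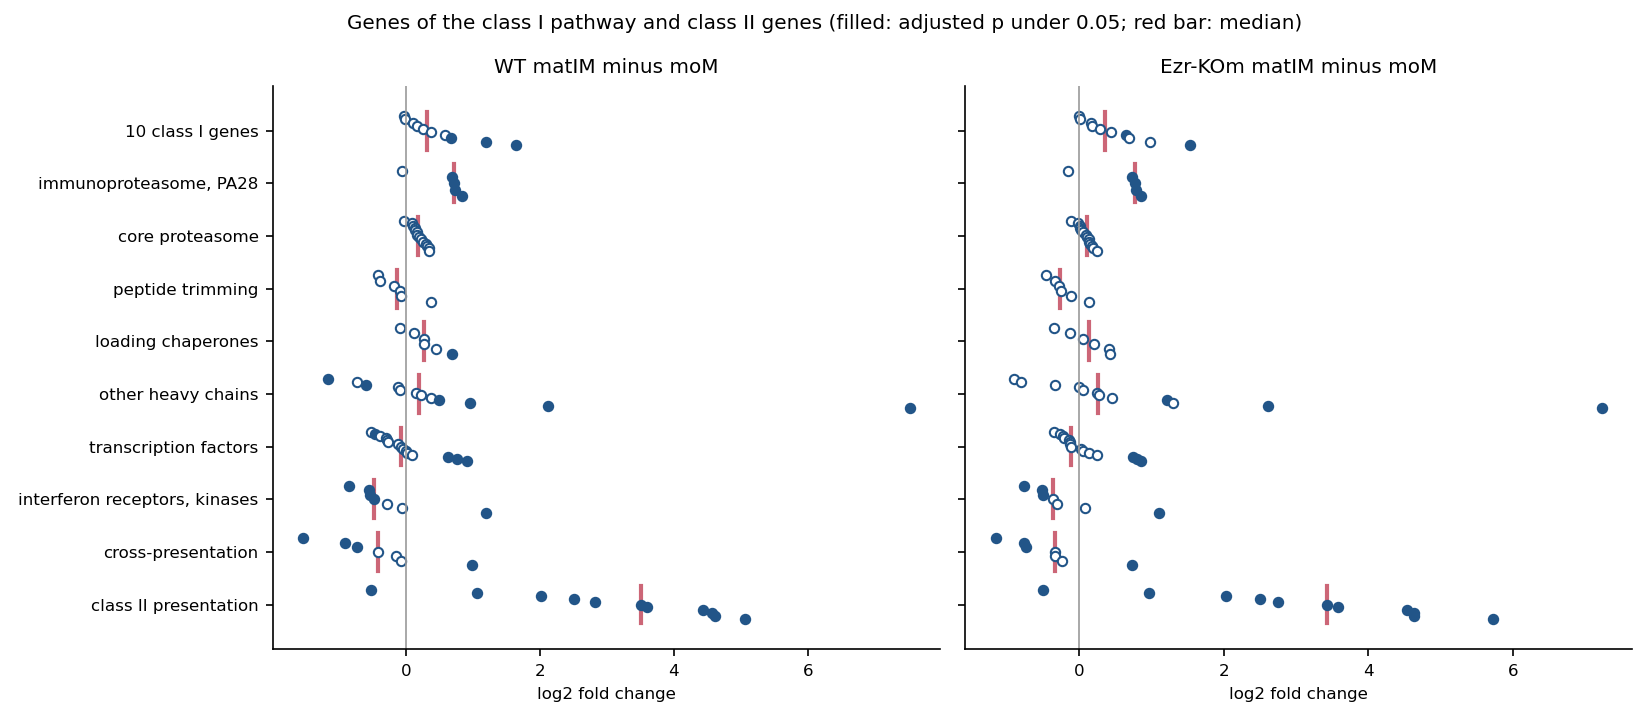
Log2 fold change from moMs to matIMs (x axis) of each tested gene of the class I set, of 8 lists of the class I pathway and of the class II genes (rows), in WT (left) and Ezr-KOm (right); filled points have an edgeR adjusted p under 0.05 and red bars are medians. Immunoproteasome and PA28 genes cluster between 0.68 and 0.84 in WT apart from *Psmb10*, core proteasome genes stay unfilled, and class II genes reach 5.07 in WT.

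The 200 bases before the transcript starts were searched on both strands for motifs of class I promoters, using GRCm39 and the canonical transcripts of a later Gencode release. A canonical start can lie inside the locus, as for *Tapbp*, whose window was chr17:34138024-34138223. The counts hold for these windows only. The NF-kappaB consensus was found before 3 of 10 genes (*H2-K1*, *H2-Q6* and *H2-Q7*) and before 7.19% of 13212 protein-coding genes tested here. The sequence GAANNGAAA, a relaxed form of the interferon response element chosen after the promoters had been seen, was found before the same 3 genes and before 4.86%. The stricter form, GAAA and GAAA with 2 bases between them, was found before 0 of 10 and 2.56%, TGACGC before 1 of 10 (*H2-K1*) and 7.33%, and CCAAT before 5 of 10 and 31.7%. The promoters of the 3 genes with matches are given, with that of *Tap2*, which rose from moMs to matIMs without a block. They read 5′ to 3′ on the strand of the gene and end at the base before the start. The NF-kappaB and GAANNGAAA matches are in capitals.
H2-K1: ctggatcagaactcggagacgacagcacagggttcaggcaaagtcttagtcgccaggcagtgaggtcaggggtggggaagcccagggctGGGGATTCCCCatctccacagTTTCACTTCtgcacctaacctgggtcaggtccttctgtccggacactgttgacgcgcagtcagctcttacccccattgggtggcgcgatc
H2-Q6: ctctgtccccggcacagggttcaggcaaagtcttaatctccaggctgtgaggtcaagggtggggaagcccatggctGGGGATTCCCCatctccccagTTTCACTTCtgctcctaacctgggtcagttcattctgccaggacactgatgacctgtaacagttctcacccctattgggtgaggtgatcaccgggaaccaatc
H2-Q7: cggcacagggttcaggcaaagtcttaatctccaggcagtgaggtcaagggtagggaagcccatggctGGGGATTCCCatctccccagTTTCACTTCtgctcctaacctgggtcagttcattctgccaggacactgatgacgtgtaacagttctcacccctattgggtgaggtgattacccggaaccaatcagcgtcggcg
Tap2: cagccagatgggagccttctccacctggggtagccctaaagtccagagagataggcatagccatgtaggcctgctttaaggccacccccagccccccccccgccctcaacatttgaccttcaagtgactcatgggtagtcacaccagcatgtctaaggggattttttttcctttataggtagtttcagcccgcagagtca
They lie at chr17:34219322-34219521 (minus strand), chr17:35643577-35643776, chr17:35657931-35658130 and chr17:34422301-34422500 (plus strand). Counting the last base before the start as -1, the NF-kappaB match starts at base -111 in *H2-K1*, -124 in *H2-Q6* and -133 in *H2-Q7*, and it is found on both strands. In *H2-K1* and *H2-Q6* a second match, shifted by 1 base, overlaps it. GAANNGAAA lies on the minus strand at -90 to -82, -103 to -95 and -113 to -105, without overlap with the first motif. The promoters of the 3 genes are near copies of each other around the matches, so these are not independent cases. The matches are of letters and are not measured sites.

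The libraries numbered 2 stood out within the set. *Tap1*, *Tapbp*, *Nlrc5* and *H2-T23* were lowest in the library numbered 2 in 6 of 6 groups, and 0.942% of all tested genes were so. The pattern was noticed in these values and is given as a description. *Tap1* read 205 to 394 CPM in the 6 libraries numbered 2 and 333 to 599.9 CPM in the other libraries. The ranges of *Tapbp* nearly touched without overlap, with 488 to 751.6 CPM against 752.1 to 915 CPM over all groups. The mean log2 difference of libraries numbered 2 from the others of their group was -0.70 for *Tap1*, -0.67 for *Nlrc5*, -0.61 for *H2-Q7*, -0.56 for *H2-T23*, -0.45 for *H2-Q6* and -0.41 for *Tapbp*. For *H2-K1* and *H2-D1* it was -0.12 and -0.045.

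**Figure D4:**
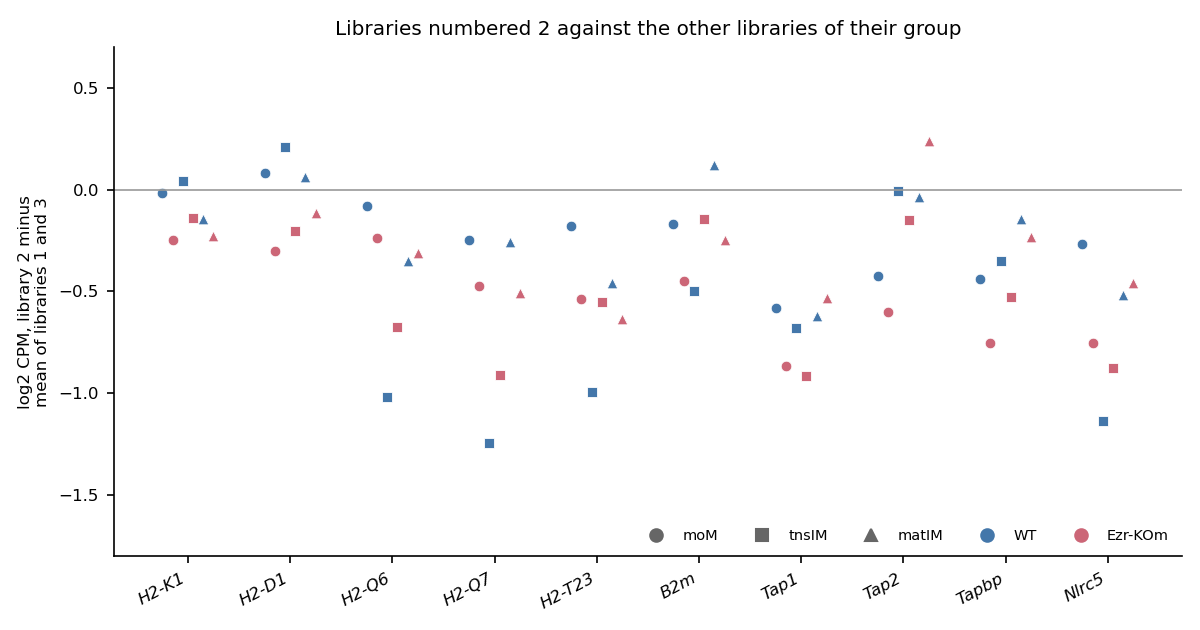
Log2 CPM of the library numbered 2 minus the mean log2 CPM of libraries 1 and 3 of the same group (y axis), for the 10 genes (x axis), 1 point per group, with shapes for populations and colours for genotypes. All 6 points lie below 0 for *Tap1*, *Tapbp*, *Nlrc5*, *H2-T23*, *H2-Q6* and *H2-Q7*, while those of *H2-D1* lie on both sides.

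In the lists beside the set, 2 of 5 immunoproteasome and PA28 genes (*Psmb9* and *Psme1*) were also lowest in the library numbered 2 in 6 of 6 groups. The same held for *Tapbpl* among 6 loading chaperones and for *H2-T22* among 12 other heavy chains. In the core proteasome and class II lists the counts were 0 of 14 and 0 of 11, and the marker lists also held 0. The labels do not say what the number stands for. Mouse, day of sorting and library preparation therefore cannot be told apart.

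Splitting the sum of squares of log2 CPM over the 18 libraries put the genes in different company. Population held most of the spread of *H2-Q6* (73.6%), *Tap2* (71.0%), *H2-K1* (64.3%) and *H2-Q7* (51.6%). The replicate number held most of that of *Tapbp* (65.3%), *B2m* (62.7%), *Nlrc5* (61.0%), *Tap1* (56.8%) and *H2-T23* (55.9%). *H2-D1* had most of its spread in the rest (57.8%). Genotype held at most 5.96%, in *Nlrc5*. Over all tested genes the medians were 39.2% for population, 1.89% for genotype and 11.9% for the number. Genotype has fewer levels than population or the number, and a factor with more levels takes a larger share by itself. Each share is therefore to be read against its own median. *Tap1* and *Tap2*, whose products work as a pair, thus differed in which share was largest. Population still held 37.1% of the spread of *Tap1*, near the median of all tested genes, and both genes had higher means in matIMs than in moMs.

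**Figure D5:**
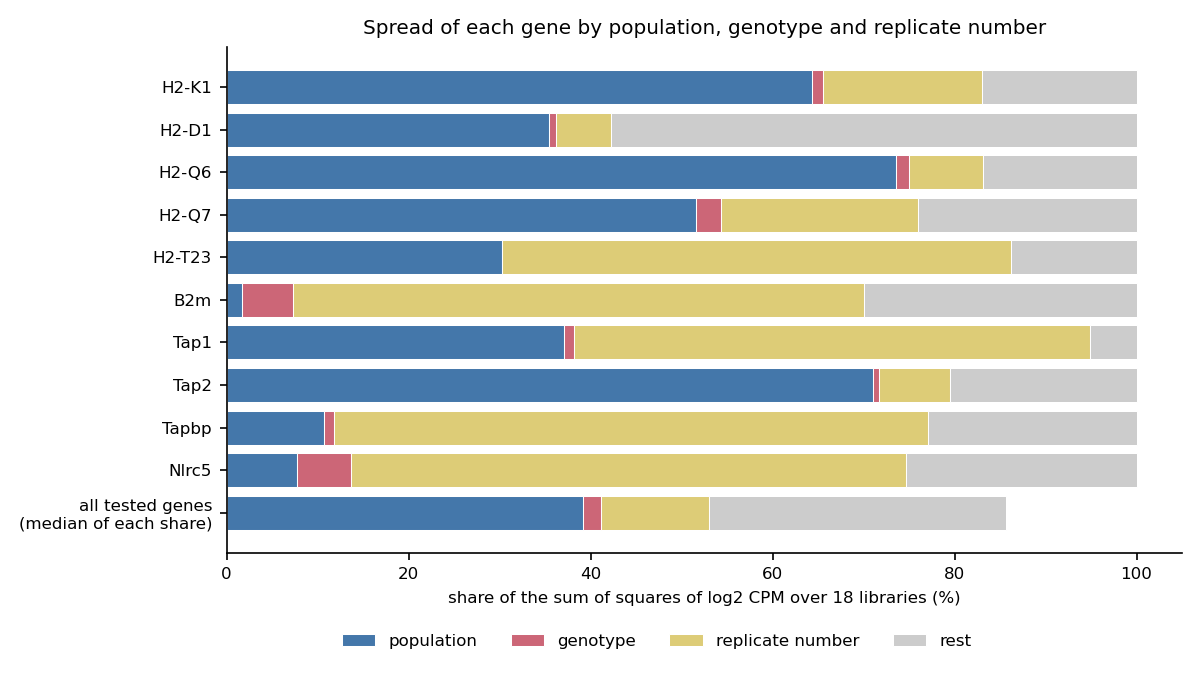
Share of the sum of squares of log2 CPM over 18 libraries (x axis, %) held by population, genotype, replicate number and the rest, for each gene and as the median of each share over all tested genes, so that the last bar need not reach 100%. Population is the largest part for *H2-Q6* (73.6%) and *Tap2* (71.0%), the number is the largest for *Tapbp* (65.3%) and *B2m* (62.7%), and genotype is small throughout.

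The genes outside all lists that followed the set most closely over the 18 libraries were found from the mean of the 10 standardized levels, among 15649 genes. The first was *Mov10* (Pearson r = 0.92), then *Tgtp1* (0.90), *Cd40* (0.89), *Cxcl11* (0.89), *A530032D15Rik* (0.89), *Cd69* (0.88), *Phf11b* (0.87), *Serpina3g* (0.87), *Gm12185* (0.86) and *Gbp8* (0.86). With Spearman's rho, 6 of these 10 were again among the first 10. After the group means were removed, r for *Mov10* was 0.88 and for *Cxcl11* 0.92, which is likeness in differences between libraries of one group. The libraries share populations and replicate numbers, and the coefficients are descriptions.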

How the data were processed

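Bulk RNA-seq libraries of moMs, tnsIMs and matIMs were made with SMART-Seq v4 and Nextera XT. The authors deposited read counts per gene, whole and not normalized, from STAR 2.7.9a on GRCm39 with Gencode M29 per the labels and methods. The strand column is not given in the sources used here, so genes that overlap on opposite strands can lose or share counts. No column was left unmatched, and no libraries were identical.

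Genes were kept with filterByExpr of edgeR 4.0.16 in R 4.3.3, scaled by TMM, and tested by quasi-likelihood F-tests in 1 model of 6 groups over 18 libraries, with Benjamini-Hochberg adjustment over 15811 genes. The procedure was tested on simulated counts in which 200 genes were changed in Ezr-KOm tnsIMs (median log2 fold change of the raised genes 2.06). There edgeR recovered 74% of the changed genes, with 3.90% false calls. DESeq2 recovered 78.5%, with 13.7% false calls, which limits the DESeq2 counts given here. Same-numbered libraries deviated together from their group means. Across genotypes in 1 population r was 0.102 to 0.316, against at most 0.0508 for unlike numbers. Across populations in 1 genotype r was 0.0905 to 0.397, against at most 0.0316, the like-numbered values under 0.1 being between moMs and matIMs. Where population and genotype both differed, like numbers gave 0.036 to 0.283 and unlike numbers at most 0.0704, so these ranges overlapped. The main fit held no block, and the number was therefore also fitted as a block beside it. Blocked counts are given, with values for most calls that changed.

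The 10 genes and all lists were chosen with earlier results of these data known. All 10 are named. From each pathway list up to 4 genes per comparison were named, by smallest p, and marker lists are given as sums. *Psmb10*, *Pax5*, *Lyz2*, *C1qa*, *Chil3*, *Ccl22*, *Ccr7*, *Xcr1* and the genes lowest in libraries numbered 2 were singled out afterwards. Of the regulators of class I transcription, the result by replicate number is not reported here. Sequences and transcripts came from GRCm39 with Gencode vM39, through Python 3.11.15. Alternatives were DESeq2 1.42.0, library totals or upper-quartile scaling, other filters, robust estimation, smaller fits, blocks and libraries left out.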

Additional observations from a re-analysis of the deposited data

How the results depend on the processing

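No log2 fold change of the 10 genes that had passed the test changed direction under any alternative. Leaving out 1 library at a time, the number of the 10 genes with an edgeR adjusted p under 0.05 ranged from 0 to 3 in WT tnsIM against moM, from 0 to 2 in WT matIM against tnsIM and from 0 to 1 in Ezr-KOm tnsIM against moM. Without the 6 libraries numbered 1, 2 or 3, an alternative chosen after seeing the data, WT tnsIM against moM gave 0, 0 and 1 gene. WT matIM against moM gave 1 gene without the libraries numbered 1 and 5 without those numbered 2, and WT matIM against tnsIM gave 1 without those numbered 3. Fitted on its own groups, WT tnsIM against moM gave 1 gene. For Ezr-KOm matIM against moM, DESeq2 gave 4 genes and scaling by library totals gave 4. With the replicate block the counts were 2 in WT matIM against tnsIM, 1 in Ezr-KOm matIM against tnsIM and 6 in Ezr-KOm matIM against moM. With the block of number and genotype they were 4, 2 and 6, and 2 in Ezr-KOm tnsIM against moM. Neither block lost a call. Over all genes, DESeq2 called 55, 55 and 52 between the genotypes in moMs, tnsIMs and matIMs, the replicate block 42, 34 and 38, and the fit without a block 27, 26 and 24. Scaling by library totals put the median log2 fold change of all genes from moMs to matIMs at 0.11 in WT and 0.13 in Ezr-KOm, and the mean levels in WT moMs at 1832.4 CPM for *H2-K1* and 5499 CPM for *H2-D1*. Of the 10 genes most like the set by Pearson correlation, 6 were shared with Spearman. With 3 libraries a group, and no library outside the 6 groups, changes inside the intervals given for each gene could not be resolved.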
